A study of Mus musculus with 12 samples.

Results

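Small nucleolar RNAs and the related structured non-coding RNAs of mouse hippocampus were read from a table of gene expression covering 5xFAD and wild-type (WT) mice aged 7 months. They were taken by name as every listed gene starting with Snora, Snord or Scarna, plus Rpph1 and Rmrp, which gave 116 of 24318 genes: 69 Snord, 36 Snora, 9 Scarna and the 2 named RNAs. The study holds 12 samples in 4 groups of 3, and the table covers the 6 libraries with the title prefix CG, which the labels do not spell out, 3 from 5xFAD and 3 from WT hippocampus. The 5xFAD strain is a transgenic model of Alzheimer's disease whose transgenes are under regulatory sequence of Thy1, a gene of neurons. Apart from genotype, the labels give both groups the same tissue, age and RNA preparation, and they name no treatment. Values are FPKM, fragments scaled to the length of the transcript and to the library total, so they show shares and not amounts. Whether replicates are separate animals is not in the labels, so each p reflects only how far these libraries scatter, and that scatter could be technical.

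Small nucleolar RNAs (snoRNAs) guide chemical marks onto ribosomal RNA. Box C/D snoRNAs, named Snord, guide methylation of the ribose, and box H/ACA snoRNAs, named Snora, guide the change of uridine to pseudouridine. Small Cajal body RNAs (Scarna) do the same for the RNAs of the spliceosome. Most are cut out of introns of a host gene, often a gene for a ribosomal protein. Rpph1 is the RNA part of RNase P, the enzyme that trims the front end of transfer RNA precursors, and Rmrp is the RNA part of RNase MRP, which cuts ribosomal RNA precursors. Both are made by RNA polymerase III from genes of their own.

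In the 6 CG libraries most of these RNAs were listed at 0, and 2 of them led the whole table. Rpph1 and Rmrp ranked 1 and 2 of all genes in every library, and 6 other RNAs of the set, with means of 18.1 to 969.8 FPKM, had a value above 0 in at least 1 library. The remaining 108 RNAs were listed at exactly 0 in all 6 libraries. By class, 0 in every library was given for 68 of 69 Snord, 33 of 36 Snora and 7 of 9 Scarna. Over all genes listed the same held for 5246 genes, or 21.6%, against 93.1% of the set. Many of these genes make RNAs that every cell uses, and an FPKM of exactly 0 may mean that no estimate was made, so they are described only as listed at 0.

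The zeros followed the annotated length of the RNA. Lengths were taken from the RefSeq annotation of GRCm38.p6, which is another assembly than the mm9 of the submitters' processing notes, and 115 of 116 RNAs had one. Snord116, from the imprinted cluster lost in Prader-Willi syndrome in humans, had no entry of that name. The 107 RNAs at 0 with a length were 42 to 157 bases long, with a median of 77 bases. The 8 RNAs above 0 were 164 to 325 bases long, with a median of 234.5 bases. The longest RNA at 0 was Snora78 with 157 bases and the shortest above 0 was Snora81 with 164 bases, so the ranges did not overlap. The median annotated length was 68 bases for Snord, 119.5 bases for Snora and 118 bases for Scarna. Some annotated Scarna lengths were short, such as 42 bases for Scarna9 and 61 bases for Scarna2, and which length went into each FPKM is not stated in the labels or the table.

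The same boundary held for every listed gene with a length. Of 1278 genes of 157 bases or fewer, 0 had a value above 0 in any library. By RefSeq type, 1156 of them were microRNA genes, 109 snoRNA genes and 7 small Cajal body RNA genes. The shortest listed gene above 0 in any library was again Snora81. Length above the boundary did not go with a value by itself. Of the other genes longer than 157 bases and up to the 325 bases of Rpph1, 8 of 8 were at 0 in all 6 libraries, among them Rprl1, Rprl2 and Rprl3, RNase P RNA-like genes of 235 to 238 bases. The share of genes at 0 throughout did not fall steadily with annotated length. It was 57.1% from 300 to 400 bases, 53.0% from 400 to 700 bases and 80.9% from 700 to 1000 bases. It was 42.1% from 1000 to 2000 bases and 1.68% above 100000 bases. These lengths run over the whole gene, introns included, so for longer genes they are not transcript lengths.

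**Figure D1:**
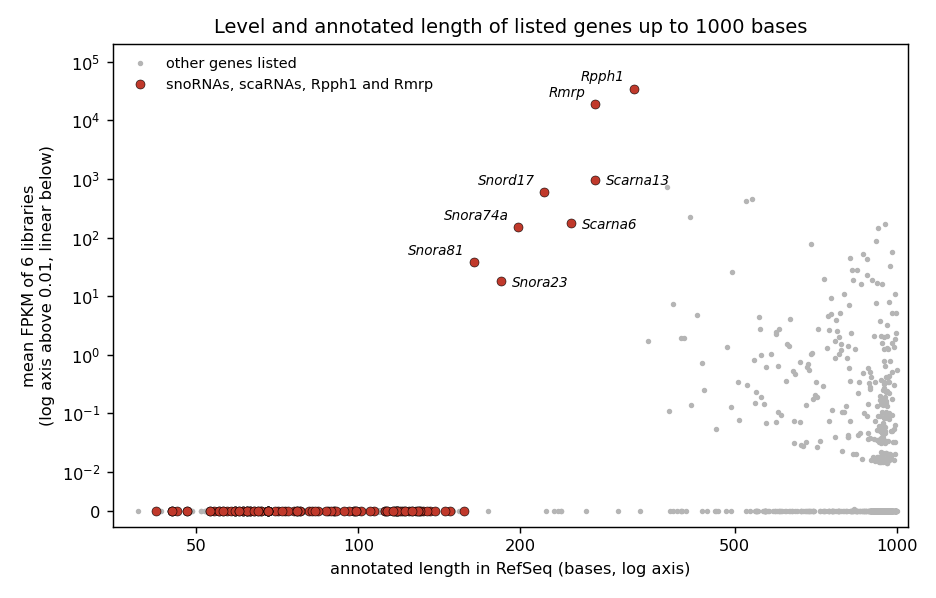
Mean FPKM over the 6 CG libraries (vertical axis, log above 0.01 and linear below) against annotated length in bases (log axis) for listed genes of up to 1000 bases, with snoRNAs, Scarna, Rpph1 and Rmrp in red and other genes in grey. All red points up to 157 bases lie at 0, and the 8 red points from 164 bases up lie between 18.1 and 34781 FPKM.

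The genes that hold the RNAs at 0 were themselves above 0. By position in GRCm38.p6, 103 of the RNAs at 0 lay within a listed gene, and these host genes numbered 74. All 74 hosts had a value above 0 in all 6 libraries. Their mean levels ran from 0.611 to 483.8 FPKM with a median of 36.4 FPKM, against a median of 7.51 FPKM for all genes above 0 in every library. Of the 74 hosts, 59 were protein-coding and 15 long non-coding, and 22 of the protein-coding ones encoded ribosomal proteins, which held 32 of the RNAs at 0. The position table gives no strand, so a host is named here by position. Only listed genes could be hosts. Where several contained an RNA, the one with the highest mean FPKM was taken, which favours high host levels.

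A few hosts carried several of the RNAs listed at 0. Rpl13a, a ribosomal protein gene at a mean of 262 FPKM, holds Snord32a, Snord33, Snord34 and Snord35a, box C/D RNAs that guide methylation of ribosomal RNA. Rpl23a, at 483.8 FPKM the highest of the hosts, holds Snord42a, Snord42b and Snord4a. Snhg12, a long non-coding gene at 25.1 FPKM, holds Snora16a, Snora44, Snora61 and Snord99. Snhg14, the long transcript of the Prader-Willi region, stood at 39.8 FPKM and holds Snord64, Snord116l1 and Snord116l2. Nop56 and Nop58, which encode core proteins of the box C/D particle, hold a pair of Snord each and stood at 39.6 and 16.1 FPKM. In each of these hosts the table gave the spliced gene a level and its small RNAs 0.

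**Figure D2:**
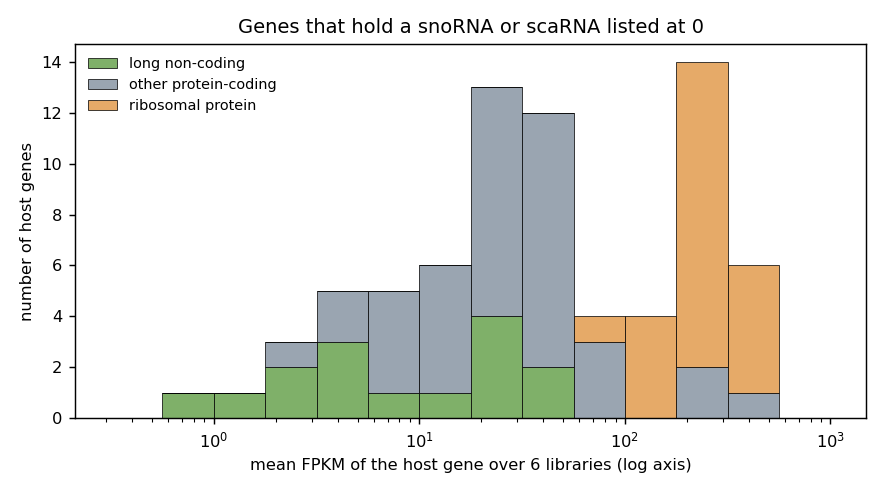
Number of host genes (vertical axis) by their mean FPKM over the 6 CG libraries (log axis) for the 74 genes that hold a snoRNA or Scarna listed at 0, stacked by ribosomal protein, other protein-coding and long non-coding hosts. The hosts span 0.611 to 483.8 FPKM, and the ribosomal protein hosts make up most of those at 100 FPKM or more.

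Rpph1 was the highest RNA in the table. Its level was 41100, 35008 and 32299 FPKM in 5xFAD libraries and 38391, 28531 and 33358 FPKM in WT libraries. The genotypes overlapped, with replicate 1 highest in each and WT replicate 2 lowest of all. Rpph1 averaged 36136 ± 4508 FPKM in 5xFAD and 33427 ± 4930 FPKM in WT (SD, n = 3 each), a log2 difference of 0.12 (SE 0.31) on the log2(FPKM + 1) scale that did not pass limma (adjusted p = 1.00). It was 0.0067 without WT replicate 2 and 0.22 without WT replicate 1. Rpph1 held 9.98%, 8.61% and 8.21% of total FPKM in 5xFAD libraries and 9.31%, 7.41% and 8.18% in WT libraries. That share differed by 0.635 percentage points with an exact two-sided permutation p of 0.4, in a design of 3 against 3 that cannot go below 0.1.

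Rmrp was the steadiest RNA of the set, with an SD of 8.06% of its mean over the 6 libraries. Its level was 19538, 19236 and 19294 FPKM in 5xFAD libraries and 19409, 15655 and 19224 FPKM in WT libraries. WT replicate 2 stood alone below the other 5 libraries, which lay close together. The log2 difference was 0.10 (SE 0.25, limma adjusted p = 1.00), and without WT replicate 2 it was 0.0030. Rpph1 stood above Rmrp in every library, by 2.10, 1.82 and 1.67 times in 5xFAD and by 1.98, 1.82 and 1.74 times in WT. The whole set held 15.3%, 13.7% and 13.6% of total FPKM in 5xFAD libraries and 14.6%, 11.96% and 13.3% in WT libraries, and Rpph1 and Rmrp made up nearly all of it. Without those 2 RNAs the share was 0.407% to 0.549% in 5xFAD and 0.439% to 0.540% in WT.

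The small Cajal body RNAs Scarna13 and Scarna6 were the only ones of their class above 0. Scarna13 was at 1113, 911 and 734 FPKM in 5xFAD libraries and at 1146, 962 and 953 FPKM in WT libraries, which placed it 10th to 23rd of all genes. The genotypes overlapped through replicate 1 of 5xFAD, and the log2 difference was -0.17 (SE 0.17, limma adjusted p = 1.00). Snhg10, the long non-coding gene that holds Scarna13, was at 5.16, 3.16 and 3.94 FPKM in 5xFAD libraries and 3.24, 2.86 and 1.83 FPKM in WT libraries. Scarna13 averaged 288 times its host in FPKM. The lengths behind both values are not stated, so this is not a ratio of molecules. Snhg10 differed by 0.48 (SE 0.20), which did not pass limma either (adjusted p = 1.00, unadjusted p = 0.0419). Without the library labelled 5xFAD replicate 3 the difference of Scarna13 was -0.015 and that of Snhg10 was 0.50, and without 5xFAD replicate 1 that of Scarna13 was -0.31.

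Scarna6 lies within Atg16l1, a gene of autophagy, and stood at 11.3 times its FPKM, which is not a ratio of molecules either. Its FPKM was 184, 136 and 170 in 5xFAD libraries and 214, 172 and 179 in WT libraries. The 5xFAD values of replicates 2 and 3 lay under the whole WT range and 5xFAD replicate 1 lay inside it. The log2 difference of -0.21 (SE 0.14) had the smallest unadjusted p of the set, 0.163, and did not pass limma (adjusted p = 1.00). It was -0.088 without 5xFAD replicate 2 and -0.31 without 5xFAD replicate 1.

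Snord17 was the one box C/D snoRNA above 0, and it lies within Snx5, a sorting nexin gene at 27.1 FPKM. Snord17 was at 695, 463 and 695 FPKM in 5xFAD libraries and at 573, 633 and 473 FPKM in WT libraries. Both the highest and the lowest value belonged to 5xFAD. It averaged 618 ± 134 FPKM in 5xFAD and 560 ± 80.6 FPKM in WT (SD, n = 3 each), a log2 difference of 0.13 (SE 0.19, limma adjusted p = 1.00). It was 0.012 without WT replicate 3 and 0.32 without 5xFAD replicate 2.

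Snora74a was the one box H/ACA snoRNA above 0 in every library. It was at 181, 128 and 135 FPKM in 5xFAD libraries and at 177, 125 and 167 FPKM in WT libraries, with full overlap and a log2 difference of -0.08 (SE 0.18, limma adjusted p = 1.00). Without 5xFAD replicate 2 or without WT replicate 1 that difference was 0.016 or 0.018, so its sign rests on single libraries. Snhg4, the long non-coding gene that holds it, averaged 6.78 FPKM.

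**Figure D3:**
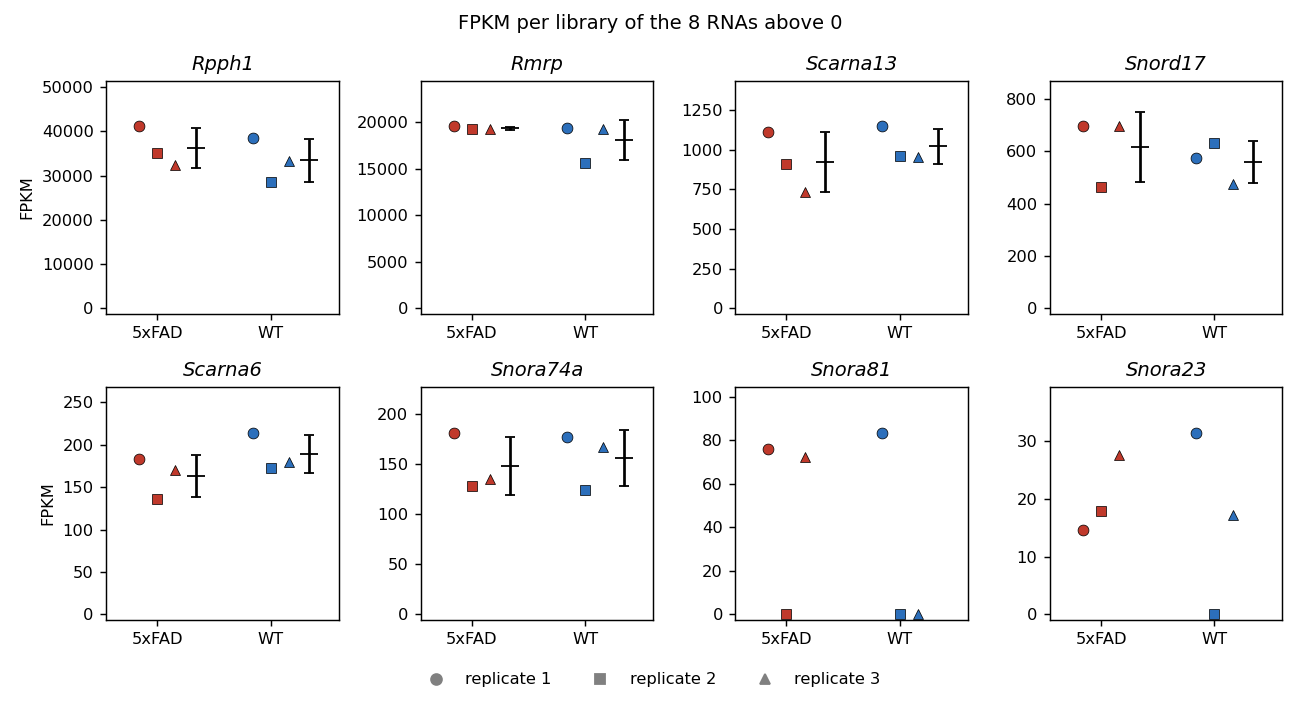
FPKM of each of the 8 RNAs above 0 (vertical axes, from 0) in the 5xFAD and WT libraries, with the marker shape giving the replicate and the bar beside each group its mean ± SD (n = 3), left out for Snora81 and Snora23 because they hold zeros. The genotypes overlap in all 8 panels.

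The remaining H/ACA RNAs, Snora81 and Snora23, switched between 0 and sizeable values without following genotype. Snora81, held by the translation factor gene Eif4a2, was at 76.2, 0 and 72.2 FPKM in 5xFAD libraries and at 83.6, 0 and 0 FPKM in WT libraries. Eif4a2 itself stayed between 229 and 261 FPKM in 5xFAD and between 246 and 270 FPKM in WT. Snora23, held by the nuclear import gene Ipo7, was at 14.6, 17.8 and 27.5 FPKM in 5xFAD libraries and at 31.4, 0 and 17.1 FPKM in WT libraries. Ipo7 stayed between 36.5 and 42.3 FPKM in 5xFAD and between 39.9 and 44.4 FPKM in WT.

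Being at 0 in some but not all libraries was itself common, at 2 of 8 RNAs above 0 anywhere and 15.2% of all such genes, but not at this height. Of 19072 genes above 0 anywhere, 7 were at 0 in one library and at 10 FPKM or more in another, which is 0.0367%, and Snora81 and Snora23 were 2 of those 7. The other 5 were Malat1, the Y-linked genes Ddx3y and Eif2s3y, Cox8b and Apoo-ps, named after their values were seen. No RNA of the set was at 0 in every library of one genotype and above 0 in every library of the other. That pattern was shown by 0.236% of genes above 0 anywhere. Malat1 was among them, at 0 in all 5xFAD libraries and at 3608, 3288 and 3425 FPKM in WT. Its zeros too may mean that no estimate was made.

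Scaled by sequencing depth, the values of the pair lay at a few levels. Ratios of low FPKM values between libraries put relative depth at 1.01, 0.980 and 1.15 in 5xFAD libraries and at 1, 0.793 and 0.983 in WT libraries, with WT replicate 1 set to 1. FPKM times this depth gave 76.7 and 83.3 for the 5xFAD libraries with Snora81 and 83.6 for the WT library, a spread of 1.09 times. For Snora23 the scaled values were split at a cut placed between them. The lower level was 14.7 and 17.5 in 5xFAD and 16.8 in WT. The higher level was 31.7 in 5xFAD and 31.4 in WT, 1.93 times the lower one. Unscaled values of Snora23 grouped the same way, so the 2 levels describe the choice of cut and carry no test. The library at 0 for Snora23, WT replicate 2, was also the shallowest, and it was at 0 for Snora81.

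These steps were large beside those of longer genes. Genes of 900 to 1000 annotated bases, introns included, were taken for comparison. Their most common value above 0 was 0.0895 to 0.106 FPKM in 5xFAD libraries and 0.102 to 0.130 FPKM in WT libraries. The values of Snora23 above 0 were 146 to 308 times that value in their own library, and those of Snora81 were 761 to 820 times. No read counts were recovered for these RNAs.

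**Figure D4:**
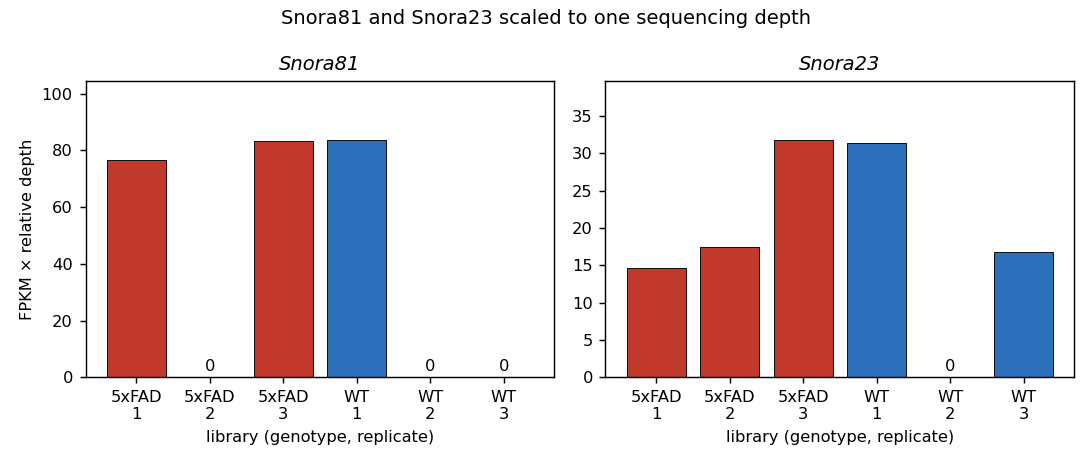
FPKM multiplied by relative sequencing depth (vertical axes, from 0) for Snora81 and Snora23 in each 5xFAD (red) and WT (blue) library. Snora81 is at 76.7 to 83.6 or at 0, and Snora23 is at 0, at 14.7 to 17.5 or at 31.4 to 31.7.

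Across the whole comparison of 5xFAD with WT, none of these RNAs passed the test. Limma called 1 of 14500 genes tested, or 0.0069%, and 0 of the 8 RNAs with a mean of at least 0.5 FPKM. At an unadjusted p under 0.05 it counted 424 genes, or 2.92%, and 0 of the 8. None of the 8 had genotypes that did not overlap, against 5.66% of genes tested (2.92% with all 5xFAD libraries higher and 2.74% with all lower). The 8 differences had 5 positive and 3 negative signs and a median of 0.11, against -0.01 over all genes tested. The 6 RNAs above 0 in every library had the following 95% confidence intervals on the log2 scale. These ran from -0.61 to 0.84 for Rpph1, -0.48 to 0.68 for Rmrp, -0.57 to 0.23 for Scarna13, -0.31 to 0.56 for Snord17, -0.54 to 0.11 for Scarna6 and -0.49 to 0.33 for Snora74a, and differences inside them remain possible. The interval was -1.32 to 3.87 for Snora23 and -2.88 to 6.92 for Snora81. Interval widths also depend on the mean trend that limma fits over all genes tested. The SE of Rpph1 was 0.31 in this fit, 0.15 without the mean trend and 2.63 without the filter on low values. That of Rmrp was 0.25, 0.11 and 1.54 in the same order. The log2 differences of Snora23 and Snora81, 1.28 (SE 1.12) and 2.02 (SE 2.12), rest on which libraries were at 0, and without WT replicate 2 that of Snora23 was -0.26.

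Thy1, whose regulatory sequence drives the transgenes, was at 305 FPKM in the library labelled 5xFAD replicate 3, against 1136 and 1172 FPKM in the other 5xFAD libraries and 296 to 340 FPKM in WT, which goes against its label. Without it, limma called 174 of 14527 genes, or 1.2%, and again 0 of the 8 RNAs, none of them at an unadjusted p under 0.05. The summed microglial markers split the libraries as Thy1 did and not as the labels do. All 6 listed markers summed to 237 and 217 FPKM in 5xFAD replicates 1 and 2. Their sum was 65.2 FPKM in the library labelled 5xFAD replicate 3 and 56.2 to 71.2 FPKM in WT. In whole tissue, fewer cells of a type and less RNA per cell cannot be told apart. The 7 hippocampal neuron markers summed to 208 to 217 FPKM in 5xFAD and 220 to 227 FPKM in WT, with all 7 above 0 in every library. The lowest sum was that of the library labelled 5xFAD replicate 3. Not all 7 markers went the same way, and the difference of the sums was not tested.

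A split of the libraries other than genotype was also seen. Replicate 1 of each genotype carried Y-linked transcripts and little Xist, the RNA of the inactive X chromosome: Xist was at 0.136 FPKM in 5xFAD replicate 1 and 0.246 FPKM in WT replicate 1, and at 99.9 to 112 FPKM in the other 4 libraries. These 2 libraries were above the other 4 for 6 of the 8 RNAs (Rpph1, Rmrp, Scarna13, Scarna6, Snora74a and Snora81). The same ordering was found in 17.8% of genes tested, and the reverse ordering in 20.6%. The 2 libraries averaged 1.23 times the other 4 for Rpph1, 1.06 times for Rmrp, 1.27 times for Scarna13, 1.21 times for Scarna6 and 1.29 times for Snora74a. Some margins were narrow. For Rmrp, WT replicate 1 was at 19409 FPKM and 5xFAD replicate 3 at 19294 FPKM. For Scarna6, 5xFAD replicate 1 was at 183.5 FPKM and WT replicate 3 at 179.5 FPKM. For Snora81, 5xFAD replicate 1 was at 76.2 FPKM and 5xFAD replicate 3 at 72.2 FPKM. The Rmrp ratio takes in WT replicate 2, which was at 15655 FPKM. This split was seen in the values and is not a group of the study, so it has no test.

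Other features went with the same libraries only in part. Choroid plexus markers, led by Ttr, summed to 2875 FPKM in WT replicate 1 and 497 FPKM in the library labelled 5xFAD replicate 3, but to 58.1 FPKM in 5xFAD replicate 1 and 44.4 to 75.4 FPKM elsewhere, and their part in the levels was not tested. Within the libraries numbered 1, Rpph1 was 1.07 times as high in 5xFAD as in WT, and within the other 4 it was 1.09 times as high. For Scarna6 these ratios were 0.857 and 0.868, for Rmrp 1.01 and 1.10, for Scarna13 0.971 and 0.859 and for Snord17 1.21 and 1.05. The ratio lay on opposite sides of 1 for Snora74a, at 1.023 and 0.8997, and for Snora23, at 0.464 and 2.65. For Snora81 it was 0.912 in the libraries numbered 1, and the other WT libraries were at 0.

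**Figure D5:**
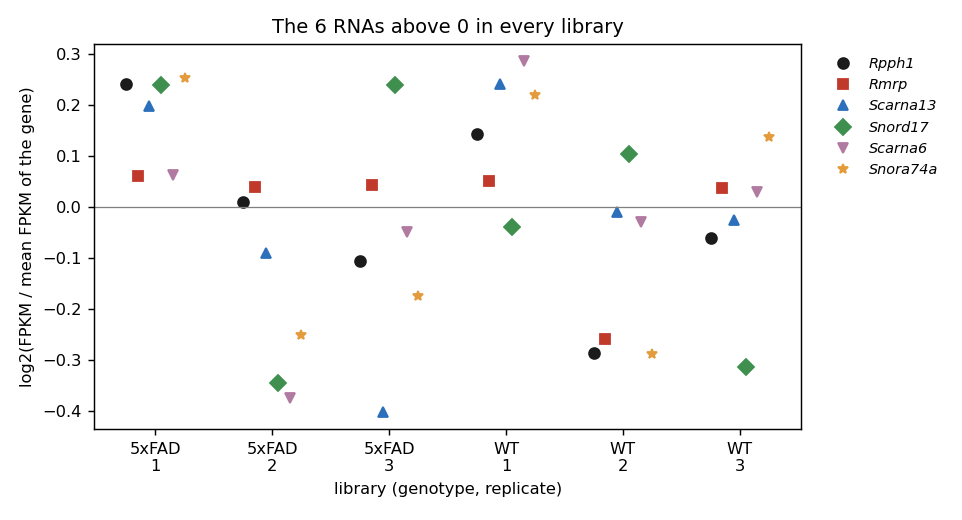
Log2 of FPKM over the mean FPKM of the gene (vertical axis) for the 6 RNAs above 0 in every library, in each 5xFAD and WT library. In 5xFAD replicate 1 all 6 RNAs lie above their mean, in WT replicate 1 all but Snord17 do, and WT replicate 2 holds the lowest values of Rpph1, Rmrp and Snora74a.

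Of the listed genes that build and process these RNAs 0 were called by genotype, beside 0.0069% of all genes tested. With so few calls over the table, 0 in lists this short says little about them. Of box C/D particle proteins 4 of 4 tested genes, of H/ACA particle proteins 4 of 4, of assembly and Cajal body factors 12 of 12, of RNase P and MRP proteins 11 of 11 and of RNA polymerase III genes 20 of 20 did not pass limma over the 6 libraries. Their median log2 differences were -0.02, -0.07, 0.01, -0.03 and -0.03, beside -0.01 over all genes tested. Without the library labelled 5xFAD replicate 3, 0 genes of these 5 lists were called as well, beside 1.2% of all genes tested.

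Among the genes with the smallest p in these lists the differences were small. Rpp30, a protein of RNase P and MRP, was at 4.80, 7.78 and 7.93 FPKM in 5xFAD libraries and at 8.82, 8.98 and 8.86 FPKM in WT libraries, a log2 difference of -0.36 (SE 0.17, limma adjusted p = 1.00, unadjusted p = 0.0657). All 3 5xFAD values lay below the WT values, and replicate 1 lay farthest. Wrap53, which brings Scarna RNAs to Cajal bodies, was at 5.22, 4.80 and 4.44 FPKM in 5xFAD libraries and at 6.59, 5.71 and 5.39 FPKM in WT libraries, again without overlap (log2 difference -0.24, SE 0.11, limma adjusted p = 1.00). Rpp14 values did not overlap either. No overlap in either direction was found in 5.66% of all genes tested, and genes picked by a small p tend to show it. Gar1 and Dkc1, of the H/ACA particle, differed by -0.16 and -0.09, and Nop56 and Nhp2l1, of the C/D particle, by 0.06 and -0.07. Rpp14 and Znhit3 differed by -0.16 and -0.17, and the polymerase III factors Snapc3 and Snapc5 by 0.19 and 0.27, with limma adjusted p = 1.00 for each.

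Of 17 listed non-coding snoRNA host genes 16 were tested and 0 were called, beside 0.0069% of all genes tested. Snhg18 had the smallest p, at 1.14, 1.77 and 1.84 FPKM in 5xFAD libraries and 1.03, 0.943 and 0.879 FPKM in WT libraries (log2 difference 0.39, SE 0.15, limma adjusted p = 1.00). The 16 had a median difference of -0.06. Of all 79 genes that hold RNAs of the set, 0 were called, beside the same 0.0069%. Of the 79, 47 had a positive difference, and the median was 0.02. Both libraries numbered 1 were highest for 29 of these 79 genes, or 36.7%, and for 9 of the 16 non-coding hosts, beside the 17.8% of all genes tested.

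Of 13 other structured and long non-coding RNAs looked up, 7 were listed, and each of these lay below Rmrp in each library. Rn7sk, Rn7s1, Rn7s2, Rn7sl1, Rny1 and Rny3 had no entry under those names, so their levels are unknown. Rn45s, the ribosomal RNA precursor, came nearest together with Malat1, at 3936, 2737 and 3061 FPKM in 5xFAD libraries and 2974, 3230 and 2608 FPKM in WT libraries. Neat1, the RNA of paraspeckles, was at 42.7 to 97.4 FPKM in 5xFAD and 39.5 to 72.7 FPKM in WT. Terc, the RNA of telomerase, was at 1.20 to 2.93 FPKM in 5xFAD and 1.74 to 2.26 FPKM in WT. Vaultrc5, a vault RNA, was at 1.26, 1.41 and 4.01 FPKM in 5xFAD libraries and at 1.29, 0.832 and 1.39 FPKM in WT libraries (limma adjusted p = 1.00). Rnu11 and Rnu12, RNAs of the minor spliceosome, were listed at 0 throughout. Of the 5 RNAs of this list that were tested, Malat1 was the one called by limma (adjusted p = 9.51e-11), with every 5xFAD library at 0. Here too an FPKM of exactly 0 may mean that no estimate was made, so the call is not read as a loss of Malat1.

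By the profile over the 6 libraries, the 5 genes outside the set most like Rpph1, of those with a mean of at least 10 FPKM, were Anxa6, Pagr1a, Acyp1, H13 and Rpl6. Their Pearson correlations with Rpph1 on the log2 scale ran from 0.987 to 0.993. They were picked as the highest of 6881 genes over libraries that share the split by Y-linked transcripts, so the values describe the choice and carry no test.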

How the data were processed

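Total RNA from hippocampus was depleted of ribosomal RNA and sequenced as paired reads, per the labels' protocols, and the 6 CG libraries were read from 1 table of FPKM values that the authors deposited. Their processing notes name mm9 as the build. The program that made the FPKM, its gene lengths, its handling of strand, of fragments longer than an RNA and of reads shared by a small RNA and its host are not stated in the labels or the table, so such reads cannot be told apart. Fragment counts are unknown: no counting interval is given, and depth was compared only as a ratio between libraries, from the most common ratio of low values. FPKM totals were 393245 to 411964 in 5xFAD and 385214 to 412157 in WT.

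Differences are 5xFAD minus WT on log2(FPKM + 1), which understates changes of low genes. They were tested two-sided with limma 3.58.1 in R 4.3.3, with a mean trend, on genes with a mean of at least 0.5 FPKM. P-values were Benjamini-Hochberg adjusted over all genes tested, with a threshold of 0.05, and the fit was tested on simulated data. Lengths, RNA types and containing genes came from the RefSeq table of GRCm38.p6, matched by symbol, and may differ from the authors' mm9 annotation. Lengths run over the whole gene, introns included.

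The RNAs and lists were chosen with earlier results of these data known. Named genes were Rpph1, Rmrp, the highest Snord, Snora and Scarna, those with the smallest and largest relative SD, at most 2 genes per related list with the smallest p, and the 5 genes most like Rpph1 in profile. Hosts, RNAs at 0, genes at the length boundary, sex-linked genes, Terc, Rn45s, Rnu11, Rnu12 and Snhg10 were picked after their values were seen. The other pseudocount, filters, scalings, the replicate block and fits without each library were alternatives. The AT libraries were not analysed here.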

Additional observations from a re-analysis of the deposited data

How the results depend on the processing

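Of 197 recomputed values, 188 stayed the same. For differences this meant that they neither reversed nor crossed the threshold. The other filters, no mean trend, the replicate block and a term for the libraries with Y-linked transcripts leave each log2 difference unchanged. Under these a sign could not reverse, and only the call could move. Counts had to stay within a set ratio and shares within the SD of the libraries. Under any alternative 0 RNAs of the set were called, the smallest limma adjusted p being 0.897. Leaving out each library in turn gave 1 to 174 genes called over the table, with 174 without the library labelled 5xFAD replicate 3, and 1 to 2 RNAs at 0 in some libraries, with 1 without WT replicate 2. The log2 difference of Snora74a ran from -0.23 to 0.018, at 0.016 without 5xFAD replicate 2 and 0.018 without WT replicate 1. That of Snora23 ran from -0.26 to 2.25, at -0.26 without WT replicate 2, and that of Snora81 from 0.95 to 4.15. Those of the other RNAs ran from 0.0067 to 0.22 for Rpph1, 0.0030 to 0.16 for Rmrp, -0.31 to -0.015 for Scarna13, 0.012 to 0.32 for Snord17 and -0.31 to -0.088 for Scarna6. The cause was not tested. Over the total of genes outside the set, the set came to 16.6% in 5xFAD and 15.3% in WT, and Rpph1 to 10.4% in 5xFAD and 9.58% in WT, since the denominator is smaller. Quantile normalization sets the differences of Rpph1 and Rmrp to 0 by construction, so these 2 of the 188 have no direction, as both hold the same rank in every library.

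Same-numbered libraries correlated at 0.415, 0.279 and 0.0398 in their deviations from the group means, and other pairs at -0.358 to 0.153. The library labelled 5xFAD replicate 3 correlated best with WT replicate 2, at 0.147. These values do not settle whether the numbers pair the samples. With the replicate block 1 gene was called, as without it, and 760 genes were at an unadjusted p under 0.05, against 424. Scarna6 then had an unadjusted p of 0.0435 in limma and an adjusted p of 0.917. Without both libraries numbered 1, or with a term for the Y-linked transcripts, both chosen after seeing the data, 1 gene was called and 0 RNAs of the set. Leaving mitochondrial genes out of the denominator gave no value, since 0 genes carry an mt- name. Motifs were not searched. The zeros and steps of the shortest RNAs limit what their differences can show.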
